A study of Homo sapiens with 8 samples.

Results

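Astrocytes are the glial cells of the brain that clear glutamate and potassium from around synapses, export cholesterol to neurons and secrete much of the extracellular matrix. Their usual RNA markers include GFAP, an intermediate filament, the water channel AQP4, the calcium-binding protein S100B, the folate enzyme ALDH1L1, the glutamate transporter SLC1A2, the gap junction protein GJA1, angiotensinogen (AGT) and the secreted matrix protein SPARCL1. Several of these genes are also active in radial glia, the progenitors from which astrocytes arise, so a cell is usually called an astrocyte from several markers at once.

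The member cells described here were chosen by those 8 markers. A cell had to hold a value of 1 or more for at least 4 of them, with AQP4 or GFAP among the 4, and a value of 0 for the cycling gene MKI67 and the collagen gene COL3A1. This rule found 675 of 43693 cells, or 1.54%. The marker part alone was met by 1487 cells, of which 812 were left out, 432 for MKI67 and 581 for COL3A1, with 201 carrying both. All measures of the 10 rule genes within these cells are therefore descriptions of the choice.

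All cells came from the H1 human embryonic stem cell line, an established line, grown as 2-D or 3-D neural cultures and sequenced by split-pool single-cell barcoding of polyA RNA. The 8 deposited libraries are sublibraries of a common pool, so the culture was read from the start of each cell name, which gave 46 culture tags. The tags 2DCocu (12 tags, 10414 cells) and 3DFusi (10 tags, 9765 cells) carried the treatment parts AcCoc, AcMor and Vehic. The tags 2DMono (6 tags, 4842 cells) and 3DMono (6 tags, 6964 cells) carried AcDop, AcMor and Vehic. Tags with no treatment part were 2DProto2Fjo, 2DProto3Wu and 2DProto4Nic (2 tags each) and 3DProto1For and 3DProto2Xia (3 tags each). The labels name dopamine, cocaine, morphine and untreated cultures without defining the tags, and give no dose, duration or culture age, so the tag names are used here as written. Nothing states that numbered tags were separate cultures, so p-values measure the spread between tags, which may be technical. The labels describe papain dissociation for the 3-D cultures, and no source used here says how the 2-D cultures were dissociated.

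The median cell held 17115 counts among the members and 12709 among the other cells. Membership rose with the depth of a cell, from 0.668% in the shallowest of 4 equal groups of cells to 2.44% in the deepest. The share of members ran from 1.21% to 2.05% over the 8 sublibraries, and from 0.478% to 0.635% after every cell was thinned to 5000 counts. Of the 41192 distinct barcodes, 2393 occurred in more than 1 sublibrary, and 2 members shared a barcode. The cells with the highest scores for resembling simulated doublets held 77 members (11.4%), against 9.5% of all cells. By arrangement they were 9.14% of 2DCocu members (8.81% of its cells) and 11.2% of 2DMono members (10.6%). They were 20.5% of the 44 3DFusi members (12% of its cells) and 38.9% of the 18 2DProto2Fjo members (11.4%).

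Members were found mainly in the 2-D cultures 2DCocu and 2DMono, which held 87.4% of them. The 12 2DCocu tags had 394 members, and their shares ran from 2.02% through a median of 4.03% to 5.09%. The 6 2DMono tags had 196 members, with a lowest share of 2.34%, a median of 3.2% and a highest of 5.56%. These ranges overlap almost completely.

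The 3-D cultures held few members. In 3DFusi 44 members were found, with shares from 0% through 0.496% to 0.776% over 10 tags, and in 3DMono 5 members, with shares from 0% through 0.0441% to 0.163% over 6 tags. Every 3DFusi tag was below every 2DCocu tag, and every 3DMono tag was below every 2DMono tag. In the tags with no treatment part, 2DProto2Fjo had 9 members in each of 2 tags (0.799% and 0.681%), 2DProto3Wu had 3 in all, and 2DProto4Nic, 3DProto1For and 3DProto2Xia had 5 each. Altogether 5 of the 46 tags had no member.

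**Figure D1:**
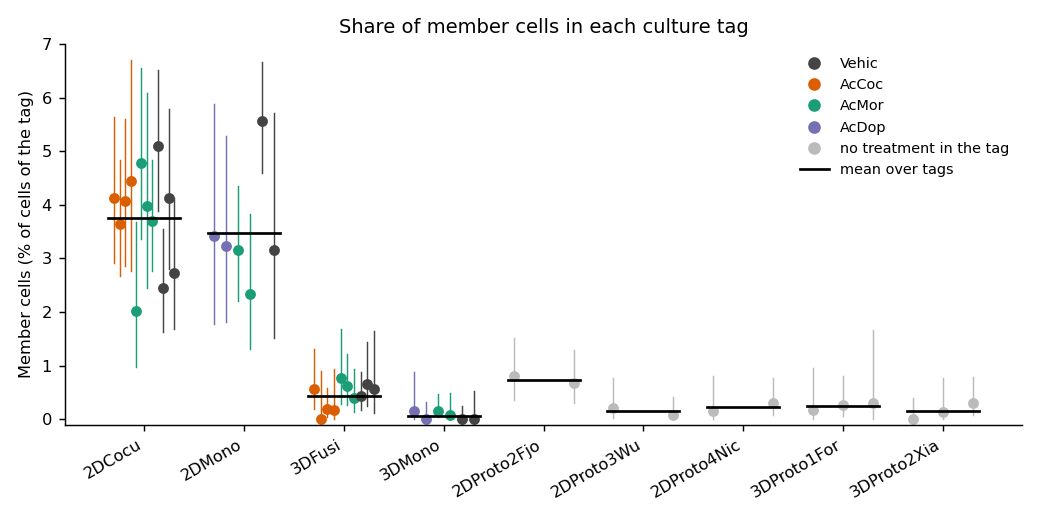
Share of member cells (% of the cells of a tag, y axis) in each of the 46 culture tags, grouped by arrangement and coloured by the treatment part of the tag name. Points are tags, thin vertical lines are exact 95% binomial intervals that cover counting error only, and black bars are means over tags. The 2DCocu tags (2.02% to 5.09%) and 2DMono tags (2.34% to 5.56%) sit above all 3-D tags, none of which exceeds 0.776%.

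The differences of 3DFusi from 2DCocu and of 3DMono from 2DMono were larger than the spread between tags. The 2DProto3Wu and 2DProto4Nic tags, from 0.0743% to 0.299%, lay within the range of the 3-D tags. The share was 0.439% ± 0.248 (SD, n = 10 tags) in 3DFusi and 3.76% ± 0.931 (SD, n = 12) in 2DCocu, a difference of -3.3 percentage points (two-sided exact permutation test within treatments, p = 2.33e-05, adjusted p over 3 arrangement tests 7.00e-05). It was 0.0683% ± 0.0794 (SD, n = 6) in 3DMono and 3.48% ± 1.09 (SD, n = 6) in 2DMono, a difference of -3.41 points (exact permutation test, p = 0.00926, the smallest this design allows, adjusted p = 0.0139). The median cell of all types held 10513 counts in 2DCocu, 13270 in 2DMono, 13663 in 3DFusi and 12778 in 3DMono. After thinning to 5000 counts, which left out 526, 256, 254 and 219 shallower cells of those arrangements, the shares were 1.24% ± 0.511, 1.48% ± 0.731, 0.141% ± 0.192 and 0% (SD over 12, 6, 10 and 6 tags).

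Between 2DCocu and 2DMono, restricted to the treatments they share, the share was 3.61% ± 1.11 (SD, n = 8) against 3.55% ± 1.4 (SD, n = 4), a difference of 0.0532 points (exact permutation test, p = 0.938). Stricter forms of the rule gave lower shares in 2DCocu, as did keeping cells with MKI67 or COL3A1. A value of 0.5 or more counting as present gave 0.0581 points. Leaving out 1 tag gave from -0.549 to 0.656 points. With at least 5 markers the difference was -1.02 points (exact permutation test, adjusted p = 0.0267). With ALDH1L1 left out and 4 of the remaining markers still needed, an alternative added after the data were seen, 32.2% of 2DCocu members and 75.5% of 2DMono members still met the rule. The shares over all tags were then 1.2% ± 0.516 (SD, n = 12) and 2.69% ± 1.04 (SD, n = 6), and the test on the shared treatments gave -1.56 points (exact permutation test, adjusted p = 0.0222).

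Treatments were compared in 8 tests of the share, none of which could pass: the smallest p an exact permutation test allows is 0.0286 in 3 of them and 0.1 or more in the rest, too large once adjusted over 8 tests. The values are therefore given as a description. In 2DCocu the AcCoc tags had 4.12%, 3.64%, 4.07% and 4.44%, the AcMor tags 2.02%, 4.78%, 3.98% and 3.7%, and the Vehic tags 5.09%, 2.45%, 4.12% and 2.72%. All 3 groups overlap (exact permutation p = 0.486 for AcCoc and p = 1 for AcMor, against Vehic). After thinning to 5000 counts the AcMor tags had 0%, 0.938%, 0.816% and 1.21% and the Vehic tags 1.36%, 1.55%, 1.64% and 1.29%, so every AcMor tag was then below every Vehic tag (exact permutation p = 0.0286, the smallest possible, adjusted p = 0.229). In 3DFusi the 4 AcCoc tags had 0.564%, 0%, 0.201% and 0.168%, and the 3 Vehic tags 0.428%, 0.667% and 0.568% (exact permutation p = 0.0857, adjusted p = 0.686). The 3DFusi groups overlap through the first AcCoc tag, and these shares rest on 9 and 16 members. AcMor in 3DFusi was 0.598% ± 0.188 against 0.555% ± 0.12 in Vehic (SD, n = 3 each, exact permutation p = 0.8).

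In 2DMono the 2 AcDop tags had 3.41% and 3.24%, the 2 AcMor tags 3.16% and 2.34%, and the 2 Vehic tags 5.56% and 3.15%. With 2 tags a group the smallest p an exact permutation test allows is 0.333. In 3DMono no member was found in the 2 Vehic tags, 0 of 1539 cells and 0 of 689 cells, which allows shares of up to 0.195% and 0.435% when 3 cells of each total are taken as the limit (exact 95% upper limits 0.239% and 0.534%). The AcDop and AcMor tags of 3DMono held 1 and 4 members, 0.0792% and 0.126% on average over tags.

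Among the members GFAP was nearly universal (99.6%), followed by SPARCL1 (89.2%), SLC1A2 (80.3%), ALDH1L1 (70.5%) and GJA1 (57.5%). S100B was present in 26.1%, AGT in 9.9% and AQP4 in 6.4%. GFAP alone was the anchor in 632 members, AQP4 alone in 3, and both in 40. The commonest combination was GFAP, ALDH1L1, SLC1A2 and SPARCL1 with no other marker, in 187 members (27.7%), and the next was GFAP, SLC1A2, GJA1 and SPARCL1 in 88 (13%). Most members passed at the threshold, with 476 carrying 4 markers, 151 carrying 5, 33 carrying 6, 11 carrying 7 and 4 carrying all 8.

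The astrocyte label thus rests on GFAP with SPARCL1, SLC1A2 and ALDH1L1, and the defining marker AQP4 was without a count in most members. SOX9, a transcription factor of the astrocyte lineage, had a count in 6.96% of members. They are called member cells below for that reason.

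Just outside the rule were 894 cells with an anchor and 3 markers. GFAP was present in 99.3% of them and in 99.4% of the 476 members with 4 markers. SPARCL1 was present in 58.7% outside and 86.8% inside, SLC1A2 in 54.7% and 75.8%, and ALDH1L1 in 44.6% and 67.4%. The median depth was 12726 counts outside and 15479 inside.

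Free RNA can place single counts of a gene in cells that do not express it, so the markers were also read in neuron-rich cells, those with at least 7 of 10 neuronal markers. In 2DCocu 2259 such cells (median 12493 counts, against 14949 in members) had GFAP in 12.3%, ALDH1L1 in 11.2%, SPARCL1 in 23.1% and AQP4 in 0.0443%. SLC1A2 was present in 87.1% of them, more often than in the 2DCocu members (72.8%). In 2DMono 1455 neuron-rich cells (median 18392 counts, against 19902 in members) had SLC1A2 in 92.4% and the members in 92.3%. SLC1A2 was thus as frequent in neuron-rich cells as in members, while the high share of GFAP in members was fixed by the rule.

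**Figure D2:**
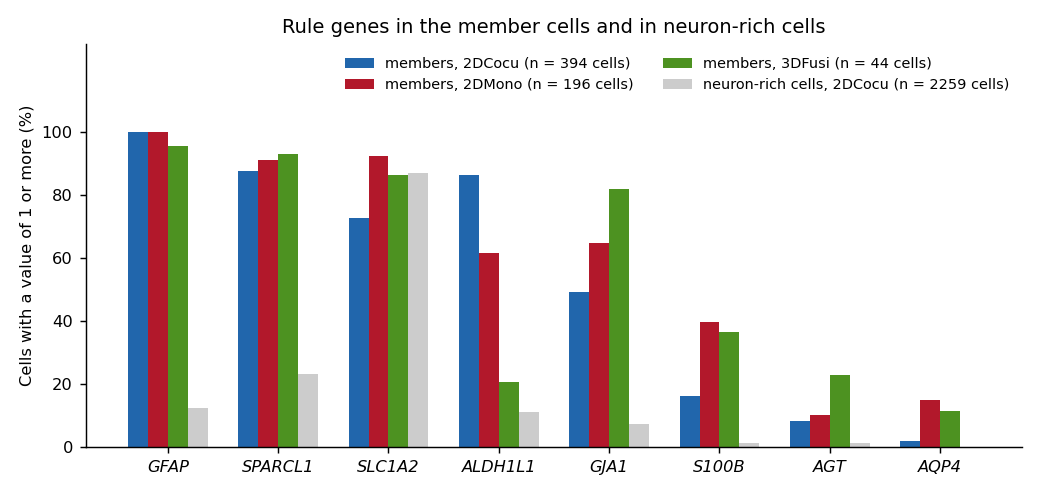
Percentage of cells with a value of 1 or more (y axis) for each of the 8 positive rule genes (x axis), in the members of 2DCocu, 2DMono and 3DFusi and in the neuron-rich cells of 2DCocu. ALDH1L1 falls from 86.3% of 2DCocu members to 20.5% of 3DFusi members, AQP4 is low throughout, and SLC1A2 is as frequent in the neuron-rich cells (87.1%) as in members.

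Members of the 2 main arrangements reached the threshold through different markers. ALDH1L1 was present in 86.3% of 2DCocu members and 61.7% of 2DMono members, S100B in 16.2% and 39.8%, SLC1A2 in 72.8% and 92.3%, GJA1 in 49.2% and 64.8%, and AQP4 in 1.78% and 14.8%. After thinning to 5000 counts ALDH1L1 was present in 61.5% and 32.5% and AQP4 in 1.03% and 7.73%. In CPM, the counts of a gene per 1e6 counts of a tag's summed members, over tags with at least 10 members, ALDH1L1 ran from 109 through a median of 257 to 332 in 2DCocu and from 62.4 through 80.5 to 179 in 2DMono. GFAP ran from 129 through 239.5 to 404 in 2DCocu and from 192 through 429 to 691 in 2DMono. Both ranges overlap, with ALDH1L1 mostly higher in 2DCocu and GFAP mostly higher in 2DMono. ALDH1L1 was also common outside the members in 2DCocu, in 24.7% of the other cells against 8.31% in 2DMono and 1.81% in 3DFusi.

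ALDH1L1 and CD44, a hyaluronan receptor of astrocytes described below, differed in opposite directions between 2DCocu and 2DMono members, and their promoters are shown for that reason. Each is the stretch from 250 bases before to 50 bases after a gene start in RefSeq (GRCh38.p14), 5′ to 3′ on the gene's strand. ALDH1L1 has 2 listed starts, of which the first, printed here, is at chr3:126180537-126180836 on the minus strand. CD44 has 1, at chr11:35138921-35139220 on the plus strand. Capitals mark the letters TTGGC or, on the other strand, GCCAA, the half-site recognised by the nuclear factor I (NFI) family, whose member NFIA had a count in all 675 member cells.
ALDH1L1: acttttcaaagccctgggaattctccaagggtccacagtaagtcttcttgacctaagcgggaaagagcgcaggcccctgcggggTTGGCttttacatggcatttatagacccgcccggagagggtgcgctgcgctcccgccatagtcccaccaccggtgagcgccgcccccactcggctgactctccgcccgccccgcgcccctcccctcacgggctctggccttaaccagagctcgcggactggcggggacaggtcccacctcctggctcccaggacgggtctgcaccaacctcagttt
CD44: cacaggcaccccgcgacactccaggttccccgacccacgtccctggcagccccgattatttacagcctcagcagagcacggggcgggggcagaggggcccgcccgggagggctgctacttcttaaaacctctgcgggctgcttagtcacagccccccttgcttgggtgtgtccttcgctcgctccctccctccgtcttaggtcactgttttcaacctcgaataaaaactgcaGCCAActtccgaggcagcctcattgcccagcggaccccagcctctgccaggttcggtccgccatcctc
Both printed promoters held 1 such match, and 45.6% of the 35116 RefSeq promoters of the same length held 1 or more. The letters TATAAA or TTTATA were found once in the printed ALDH1L1 promoter and not in that of CD44. The promoter of the other ALDH1L1 start, at chr3:126181137-126181436, held 0 matches to either motif. The TATA letters were present in 11.5% of all promoters. These letters are common, and a match is a description of the sequence only.

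Beyond the rule genes, the members are described next against the other cells of the same tags, with no test, since the choice of cells used their expression. Among 7141 genes with a count in at least 25% of members, 67 were at least 2-fold higher in members in 2DCocu (0.938%) and 94 at least 2-fold lower (1.32%). In 2DMono 318 were at least 2-fold higher (4.45%) and 305 lower (4.27%). Levels are mean CPM over 12 tags of 2DCocu and 6 of 2DMono with at least 10 members.

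Genes of the astrocyte surface and matrix were among the 30 with the largest ratio. CD44 ran from 167 through 266 to 330 CPM in 2DCocu members against 78.5 to 155 CPM in the other cells, and from 477 through 799.9 to 958 CPM in 2DMono members against 95.2 to 194. In both arrangements the lowest member value was above the highest value of the other cells. BCAN, the brain proteoglycan brevican, was 25.5 CPM ± 11.8 in 2DCocu members against 7.83 ± 1.96 in the other cells, and 41.5 ± 16 against 4.93 ± 2.1 in 2DMono (SD, n = 12 and 6 tags). It was higher in members in all 18 tags.

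EDNRB, the endothelin receptor that astrocytes carry, was 72.2 CPM ± 27.3 against 23.6 ± 5.11 in 2DCocu and 25.5 ± 15.9 against 2.97 ± 0.843 in 2DMono (SD, n = 12 and 6). In the 44 pooled 3DFusi members it was 102 CPM (exact Poisson interval 87.5 to 119, counting error only) against 11.4 in the other 3DFusi cells. CLU, the lipoprotein clusterin, was 138 CPM ± 53.2 against 52.4 ± 10.5 in 2DCocu and 320.2 ± 159 against 79.7 ± 35.8 in 2DMono (SD, n = 12 and 6). ITGB4, an integrin that binds laminin, SYNM, an intermediate filament protein, and IL6R, the interleukin-6 receptor, were also in the group, with mean ratios of 1.61, 1.34 and 1.43 on the log2 scale in 2DCocu and 2.82, 2.21 and 2.52 in 2DMono.

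The 30 also held CFAP54, DNAI3, VWA3A, ARMC3 and ZBBX, which are genes of cilia. On the list of 8 ciliated or ependymal markers, 3 had a count in 25% of members, and of these 0 were at least 2-fold higher in members in either arrangement (median log2 ratios 0.70 in 2DCocu and 0.49 in 2DMono). CFAP54 (a protein of the ciliary axoneme) was 247 CPM ± 50.2 in 2DCocu members against 109.8 ± 33 in the other cells, and 179 ± 87.6 against 54.8 ± 18.4 in 2DMono (SD, n = 12 and 6). DNAI3, a dynein intermediate chain, was 32.7 CPM ± 15.3 against 14.2 ± 5.39 in 2DCocu, and VWA3A, ARMC3 and ZBBX had log2 ratios of 1.09, 1.22 and 1.33 there. The antisense genes OBI1-AS1 and AQP4-AS1 were in the group too. No source used here says whether counting used strand, so their reads cannot be told apart from those of the genes they overlap.

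**Figure D3:**
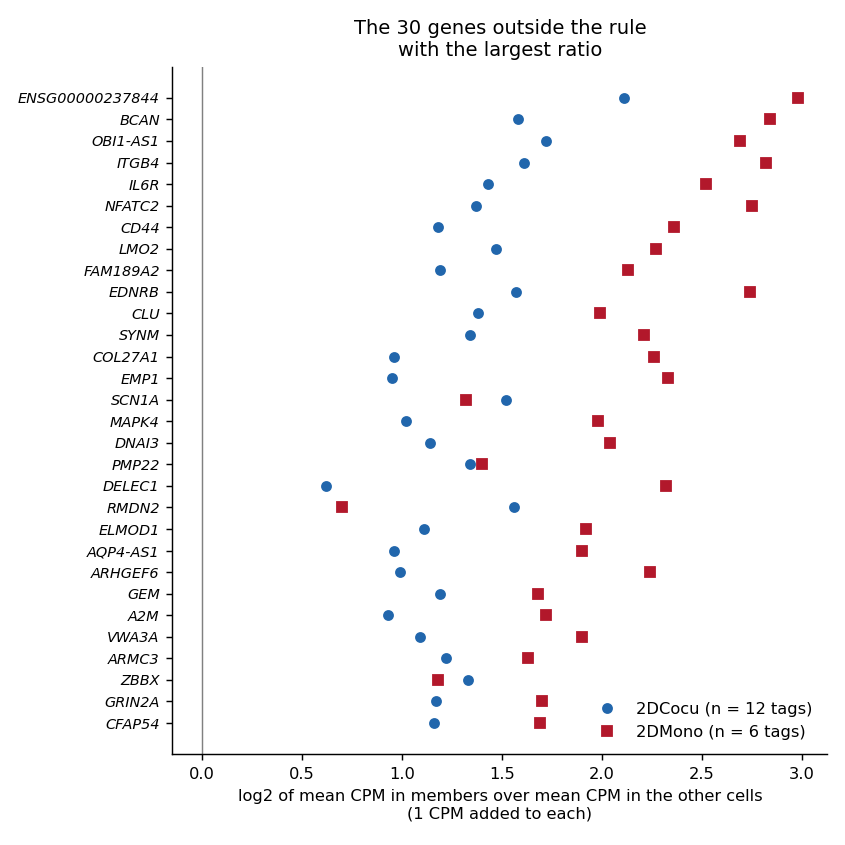
The 30 genes outside the rule with the largest ratio of mean CPM in members to that in the other cells (log2 with 1 CPM added, x axis), among genes with a count in at least 25% of members. Circles are 2DCocu (12 tags) and squares 2DMono (6 tags). All points lie right of 0, and the 2DMono ratio exceeds the 2DCocu ratio for most genes, for example 2.36 against 1.18 for CD44.

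Glutamate handling was represented chiefly by SLC1A3, the transporter GLAST, present in 94.1% of members. It ran from 528 through 680.4 to 1057 CPM in 2DCocu members against 256 to 441 in the other cells, and from 551 through 1050 to 1660 in 2DMono members against 368 to 674. The ranges separate in 2DCocu and overlap in 2DMono. GLUL, glutamine synthetase, was 25 CPM ± 6.23 against 25 ± 4.27 in 2DCocu (SD, n = 12), no higher in members. MLC1, an astrocyte membrane protein, was 34 CPM ± 11.9 against 14.9 ± 3.62, and KCNJ10, the inward rectifier potassium channel, 35.7 ± 9.69 against 19.3 ± 2.77 in 2DCocu (SD, n = 12). Of the 20 uptake, ion and coupling genes listed, 11 had a count in 25% of members, and their median log2 ratio was 0.63 in 2DCocu and 0.66 in 2DMono.

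Some genes typical of mature astrocytes, picked singly, were scarce. APOE, the main lipoprotein of astrocytes, had a count in 4.44% of members, ALDOC in 0.593% and the connexin GJB6 in 0.148%. HEPACAM, an adhesion protein of astrocyte end-feet, had a count in 13.3%. By list, 10 of the 16 astrocyte lipid and lipoprotein genes had a count in 25% of members. The median log2 ratio of these 10 was 0.64 in 2DCocu and 0.87 in 2DMono. Of the radial glia genes, NES, an intermediate filament of neural progenitors, was 202 CPM ± 42 against 98.3 ± 25.6 and VIM 282 ± 82.7 against 169 ± 39.7 in 2DCocu (SD, n = 12), both higher in 12 of 12 tags. Of 16 radial glia genes 12 had a count in 25% of members, and 2 of the 12 were at least 2-fold higher in 2DCocu and 5 in 2DMono. Their median log2 ratios were 0.73 and 0.91, beside -0.03 and -0.05 over the 7141 genes.

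The reactive astrocyte list had 9 of 28 genes in 25% of members, with median log2 ratios of 0.89 in 2DCocu and 1.15 in 2DMono, while SERPINA3 was present in 3.11%, C3 in 2.22% and LCN2 in 0.296% of members. Of the NFI transcription factors, NFIA was 2212 CPM ± 321 against 2227 ± 233 in 2DCocu, and NFIB was 839.6 ± 192 against 1462 ± 274 (SD, n = 12), lower in members in 12 of 12 tags. Lists are described by genes that passed the 25% filter, which favours genes high in members.

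The receptors and transporters on which dopamine, cocaine and morphine act had counts in few members. OPRM1, the mu opioid receptor, had a count in 4.3% of members, DRD2 in 1.93%, DRD1 in 1.63% and the dopamine transporter SLC6A3 in 0.741%. DRD5 had a count in 0 of 675 members. The adrenergic receptor ADRA1A was present in 28.9%, and the amine-degrading enzyme MAOB in 6.81%, at 14.2 CPM ± 8.89 in 2DCocu members against 5.43 ± 2.21 in the other cells (SD, n = 12). The 26 drug target and signalling genes listed, ADRA1A and MAOB among them, summed to a median of 112 CPM in 2DCocu members against 89.6 in the other cells. In 2DMono the sums were 73.3 and 75.8. Low counts of these genes can therefore not be called particular to the members.

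Markers of other cell types were present in many members. At least 3 ciliated or ependymal markers were found in 24.3% of members (exact 95% interval 21.1% to 27.7%) against 7.65% of the other cells. At least 3 pan-neuronal markers were found in 48.6% against 68.5%, 3 mesenchymal markers in 14.8% against 13.8%, 3 choroid plexus markers in 5.63% against 4.38%, and 3 cycling markers in 1.63% against 13.9%. These shares pool the cells of all arrangements. For choroid plexus markers they were 2.79% against 2.47% in 2DCocu and 4.08% against 6.72% in 2DMono. Of the 77 members with high doublet scores, 76 had at least 3 pan-neuronal markers. The rule itself removed MKI67 and COL3A1 cells. Microglia were at 0 of 675 members (other cells 0.0883%), oligodendrocyte lineage at 0.444% and endothelial at 0.296%. Since members were deeper, the counts were repeated after thinning to 5000 counts, in 669 members and 41428 other cells. The shares were then 4.63% against 1.59% for ciliated, 24.2% against 57.3% for pan-neuronal and 1.49% against 8.8% for mesenchymal markers. By arrangement the thinned ciliated share was 6.15% against 2.07% in 2DCocu. In 2DMono it was 1.03% (2 of 194 members) against 0.592%.

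**Figure D4:**
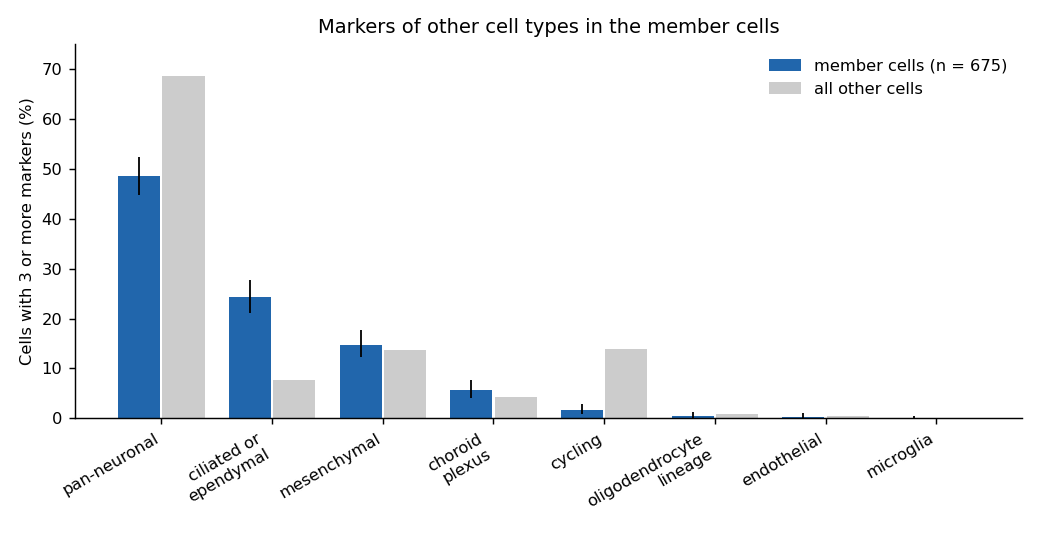
Percentage of cells with at least 3 markers of each other cell type (y axis) among the 675 member cells (dark bars, exact 95% binomial intervals) and all other cells (light bars), before thinning. Ciliated or ependymal markers stand above the other cells (24.3% against 7.65%), pan-neuronal markers below (48.6% against 68.5%), and cycling markers are nearly absent from members (1.63%).

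The 164 members with at least 3 ciliated markers were deeper (median 25079 counts) than the other 511 members (15319). DNAH9, an axonemal dynein, was present in 87.2% of them against 35%, and FOXJ1, the regulator of motile cilia, in 17.7% against 2.35%. The choice of these cells by ciliated markers raises such shares by itself. GFAP was 221 CPM in the pooled ciliated-marker members and 359 in the rest, and CD44 269 and 341. Other astrocyte and rule genes went both ways. ALDH1L1 (81.7 and 161) and EDNRB (42.5 and 69.2) were also lower in the ciliated-marker members. GJA1 (105 and 82.7) and CLU (261 and 235) were higher, and SLC1A3 (828 and 804) was near level. The part of the ciliated-marker members in the other results was not tested. The 43 members with AQP4, of which 29 were from 2DMono, 7 from 2DCocu and 5 from 3DFusi, had CD44 in 88.4% against 73.1% of the 632 without AQP4, BCAN in 72.1% against 25.9%, TNC (the matrix protein tenascin-C) in 81.4% against 58.2% and MLC1 in 62.8% against 39.7%. The median depth was 20114 counts with AQP4 against 16926 without. Of the 632 without AQP4, 387 were from 2DCocu and 167 from 2DMono, so AQP4 and arrangement cannot be told apart here. Not all astrocyte and rule genes were higher with AQP4. ALDH1L1 was present in 60.5% against 71.2% (73.7 and 137 CPM). EDNRB was lower by level (52.5 and 60.1 CPM) but present in 46.5% against 40.7%.

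Treatment effects within members could be fitted for 2DCocu, with 4 AcCoc, 3 AcMor and 4 Vehic tags of at least 20 members. No gene of 9751 tested passed edgeR's quasi-likelihood test with Benjamini-Hochberg adjustment for AcCoc (0 called, 0%, with 450 at an unadjusted p under 0.05, lowest adjusted p 0.721) or for AcMor (0 called, 417 unadjusted, lowest adjusted p 1). DESeq2 also called 0 in each. The first AcMor tag, with 10 members, was left out of that fit. Without the filter on low counts, edgeR called 10 genes for AcCoc, of which 5 are mitochondrial (MT-CO1, MT-CO3, MT-ND1, MT-RNR1 and MT-RNR2), and 1, MT-RNR1, for AcMor.

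The levels of SLC1A3 and CD44 overlapped those of Vehic within 1 SD. SLC1A3 was 699 CPM ± 94 in AcCoc (SD, n = 4), 796 ± 266 in AcMor (SD, n = 3) and 715 ± 126 in Vehic (SD, n = 4). CD44 was 285 ± 61.2, 254 ± 36.7 and 279 ± 28.3 in the same order. VIM, at 356 ± 61.6 in AcCoc against 220.5 ± 30.4 in Vehic, had a log2 difference of 0.69 (SE 0.18, edgeR adjusted p = 0.721). The immediate early gene EGR1 was 147 ± 19.4 against 90.8 ± 43.5, a log2 difference of 0.62 (edgeR adjusted p = 0.992). COL1A1, a mesenchymal gene, was 271 ± 386 in AcCoc against 66 ± 22.7 in Vehic. These levels are TMM-normalized CPM.

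By list, none of the 13 tested uptake, ion and coupling genes passed for either agent, nor any of the 12 lipid genes, 13 reactive genes, 13 radial glia genes or 7 immediate early genes. Median log2 differences for AcCoc were -0.02, 0.17, 0.05, 0.03 and 0.45 in that order, beside -0.00 over all genes. For AcMor they were 0.04, 0.20, -0.10, 0.27 and 0.22, beside 0.00. Lists of other cell types went both ways, and none of their genes passed. For AcCoc the medians were 0.65 (4 mesenchymal genes), 0.75 (3 choroid plexus), 0.25 (9 pan-neuronal), -0.11 (5 ciliated) and -0.02 (3 retinal glia). For AcMor they were -0.24, 0.50, 0.38, -0.14 and -0.08 in the same order. In 2DMono, with tags of at least 10 members, 0 of 6002 genes passed edgeR for AcDop or AcMor against Vehic (0%, 214 and 144 at an unadjusted p under 0.05). With such tags, 2 of them in each 2DMono arm, the AcMor effect in 2DCocu against that in 2DMono passed edgeR for 0 of 8146 genes (408 unadjusted). The AcMor effect in 2DCocu against that in 2DMono, fitted on tags of at least 20 members with 1 2DMono tag in each arm, whose spread is assumed to be that of the 2DCocu tags, passed for 0 of 10896 genes (507 unadjusted, lowest edgeR adjusted p 0.165), and DESeq2 called 3, ADARB2, CDH18 and CSMD1.

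The members of 2DCocu and 2DMono did differ from each other. This fit held 7 2DCocu tags (3 AcMor, 4 Vehic) and 2 2DMono tags, AcMor 1 with 35 members and Vehic 1 with 109, with treatment as a covariate. Of 9672 genes, 686 passed (7.09%), 333 higher in 2DCocu (3.44%) and 353 lower (3.65%), by edgeR with an adjusted p at most 0.05. Outside the rule genes 680 passed. The result rests on 2 2DMono tags: without AcMor 1 the count was 188 and without Vehic 1 it was 291. With tags of at least 10 members, which gave 4 2DMono tags, 725 of 7068 genes passed (10.3%), 483 of them among the 686, and 12 of the 20 largest rises and falls named below kept their call. With ALDH1L1 left out of the rule and tags of at least 10 members, 88 of 7557 genes passed (1.16%). That fit held 7 tags, against 12 with ALDH1L1 in the rule, so the change of rule and the loss of tags cannot be told apart.

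The astrocyte genes that passed were mostly lower in 2DCocu members. CD44 ran from 218 through 262 to 316 TMM-normalized CPM in 2DCocu against 1008 in AcMor 1 and 544 in Vehic 1 of 2DMono, a log2 difference of -1.52 (SE 0.21, edgeR adjusted p = 0.000199). SPARC, a secreted matrix protein, ran from 44.1 through 60.0 to 88.2 against 299 and 192 (log2 -1.92, SE 0.23, edgeR adjusted p = 5.16e-05). ABCA1, the cholesterol exporter, ran from 221 through 281 to 309 against 668 and 625 (log2 -1.21, SE 0.18, edgeR adjusted p = 0.000284). All 2DCocu tags were below both 2DMono tags for these 3 genes. The same held for 324 of the 348 genes called lower outside the rule, so it is not particular to them. CD44 and SPARC kept their call in all 17 alternatives (CD44 closest to the threshold without AcMor 1 of 2DMono, log2 -0.99, edgeR adjusted p = 0.0471), and ABCA1 lost it in the setting that both left ALDH1L1 out of the rule and took tags of at least 10 members (adjusted p = 0.209).

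CLU ran from 96.2 through 105 to 229 against 304 and 639 (log2 -1.90, edgeR adjusted p = 0.00155), and without Vehic 1 of 2DMono it was -0.98 (edgeR adjusted p = 0.142), without AcMor 1 -2.59. SLC1A3 ran from 582 through 669 to 1086 against 1339 and 1294 (log2 -0.83, edgeR adjusted p = 0.0229), and its call was lost without either 2DMono tag. Other lower genes were the fatty-acid binding protein FABP7 (log2 -2.06), the heat-shock protein CRYAB (-2.47), HES1 and ID4, transcription regulators of glial progenitors (-1.14 and -1.30), MLC1 (-0.98), PTPRZ1, a receptor phosphatase of radial glia (-0.76), VCAN, the proteoglycan versican (-0.70) and VIM (-0.71), each with an edgeR adjusted p below 0.05. HES1, MLC1, PTPRZ1, VCAN and VIM lost their call without either 2DMono tag (edgeR adjusted p from 0.0581 to 0.616), and FABP7, CRYAB and ID4 without Vehic 1 of 2DMono (edgeR adjusted p = 0.0947, 0.162 and 0.387). VIM and VCAN each lost it in 9 of 17 alternatives. Over the alternatives that tested them, FABP7 kept its call in 14 of 16, CRYAB in 14 of 15, ID4 in 15 of 17 and CLU in 14 of 17. The other list genes that passed were B2M of antigen presentation (log2 -1.86), the matrix protein THBS1 (-1.55), the immediate early gene FOSL2 (-0.96), the bicarbonate transporter SLC4A4 (-0.71), the glycolysis regulator PFKFB3 (-0.87) and, higher, the growth factor VEGFA (1.38), and all 6 lost their call without either 2DMono tag.

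By list, 3 of 12 uptake, ion and coupling genes were lower and 0 higher, 3 of 11 lipid genes lower and 0 higher, 5 of 20 secreted synapse and matrix factors lower and 0 higher, 3 of 14 reactive genes lower and 0 higher, 2 of 11 transcription factors lower and 0 higher, and 5 of 13 radial glia genes lower and 1 higher. Their median log2 differences were -0.56, -0.95, -0.61, -0.46, -0.52 and -0.71, beside 0.03 over the 9666 genes outside the rule, where 332 were higher and 348 lower. The list of secreted synapse and matrix factors also held the heat-shock protein CRYAB and the receptor phosphatase PTPRZ1. Its 5 lower genes were SPARC, THBS1, VCAN, PTPRZ1 and CRYAB. The lists share genes: the 5 lower radial glia genes, PTPRZ1, SLC1A3, FABP7, HES1 and VIM, are each also counted in another of these lists. The radial glia gene that rose was TTYH1, a membrane protein of neural progenitors, from 81.2 through 116 to 139.9 CPM in 2DCocu against 25.2 and 40.1 in 2DMono (log2 1.77, edgeR adjusted p = 0.00026). Single markers of other cell types also passed. OTX2, 1 of 2 choroid plexus genes tested, was lower (log2 -2.04, edgeR adjusted p = 0.00129), and the other gene was positive without passing. RPE65, 1 of 3 retinal glia genes tested, was lower (log2 -1.41, edgeR adjusted p = 0.0214), and the other 2 were positive without passing. OTX2 lost its call without Vehic 1 of 2DMono and RPE65 without either 2DMono tag, and OTX2 kept it in 13 of 16 alternatives. The part of both genes in the other differences was not tested. Neuronal markers had 0 of 9 genes passing (median 0.21) and ciliated markers 1 of 5, SPAG17 (log2 1.32, call lost without either 2DMono tag).

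Of 4 mesenchymal markers tested, 1 was higher and 1 lower in 2DCocu members. COL1A2 ran from 48.8 through 109 to 134 CPM in 2DCocu members against 8.39 and 7.69 in 2DMono (log2 3.53, edgeR adjusted p = 0.000293), while COL1A1 was lower (log2 -2.19, from -2.90 to -1.53 without 1 of the 2DMono tags). COL1A1 lost its call with MKI67 or COL3A1 cells kept (log2 -0.82, edgeR adjusted p = 0.529) and with ALDH1L1 left out and tags of at least 10 members (edgeR adjusted p = 0.0603). CALD1, the actin-binding protein caldesmon, ran from 102 through 192 to 275 against 1674 and 908 (log2 -2.78, edgeR adjusted p = 3.52e-05, from -3.33 to -2.17 without 1 of the 2DMono tags), and TAGLN, the actin-binding protein transgelin, from 0 through 4.71 to 6.79 against 33.6 and 37.1 (log2 -2.97, call lost without Vehic 1 of 2DMono, edgeR adjusted p = 0.103). ACTA2, smooth-muscle actin, was lower as well (log2 -2.62, and -4.01 without AcMor 1 of 2DMono, while the fit without Vehic 1 gave no value for it). TAGLN kept its call in 14 of 16 alternatives. The sum of the mesenchymal markers ran from 162 to 928 CPM in 2DCocu members and from 198 to 1005 in 2DMono members. Its part in these differences was not tested.

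**Figure D5:**
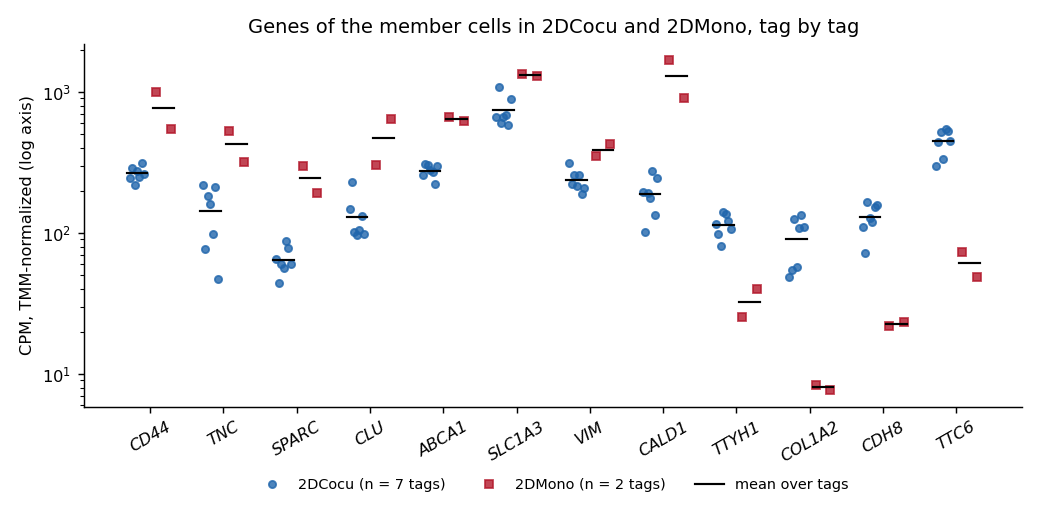
TMM-normalized CPM (log axis) of 12 genes in the summed members of each culture tag, for 7 2DCocu tags (circles) and 2 2DMono tags (squares), with black bars as means over tags. The 2DMono tags lie above the 2DCocu tags for the genes from CD44 to CALD1 and below them from TTYH1 on, with COL1A2 at 8.39 and 7.69 CPM in 2DMono. TNC was chosen after its values were seen and did not pass (edgeR adjusted p = 0.0502).

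Among the largest rises were long noncoding RNAs with almost no counts in 2DMono members. LINC02211, on chromosome 5, had 654 counts in the 2DCocu members and 1 in those of 2DMono, a ratio of rates of 637 (exact interval 114 to 25215, counting error only), with 22, 161 and 258 CPM as the lowest, median and highest 2DCocu tag (edgeR adjusted p = 0.0101, lost without either 2DMono tag). SLCO6A1, of the organic anion transporter family, had 182 counts against 0, at least 59.1-fold higher by the same ratio of rates when a floor of 3 counts over the 2DMono tags is used (edgeR adjusted p = 0.000122). The remaining 8 of the 10 named rises were LINC00491, LINC02228, the pseudogene CARM1P1 and 5 genes without a symbol in the annotation used. Near-identical copies can share the reads of CARM1P1.

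The largest falls included FBXO32, a muscle-type ubiquitin ligase subunit, from 5.89 through 10.2 to 18.4 CPM against 141 and 73.5 (log2 -3.33, edgeR adjusted p = 1.67e-05, from -4.29 to -2.48 without 1 of the 2DMono tags), and CACNG5, a regulator of AMPA receptors (log2 -2.84). NECTIN3-AS1 ran from 25.7 through 68.9 to 166 against 1810 and 600.3 CPM (log2 -3.90, edgeR adjusted p = 0.00376). It was -2.83 without AcMor 1 of 2DMono, and the call was lost with ALDH1L1 left out and tags of at least 10 members (log2 -2.64, edgeR adjusted p = 0.15). As it is an antisense gene, its reads may belong to its partner. LRATD2 (log2 -2.77, and -3.83 without AcMor 1 of 2DMono, with no value without Vehic 1) and CNPY1 (log2 -2.62) were the other named falls with a symbol. CACNG5 and CNPY1 lost their call without either 2DMono tag (edgeR adjusted p from 0.0644 to 0.417).

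The same contrast in the other cells of the same 9 tags called 2612 of 9672 genes (27%). Each comparison uses the same tags. The difference between members and other cells passed for 209 genes (2.16%), 89 of them among the 686. For the rest of the 686 the change in members was not shown to differ from that in the other cells. FABP7 (-1.22), CRYAB (-1.41), HES1 (-0.73), PTPRZ1 (-0.70) and VCAN (-0.66) were also called lower in the other cells, and TTYH1 (1.49) higher, each with a difference that did not pass (edgeR adjusted p of 0.305 or more). For CD44 the log2 difference was -1.52 in members and 0.07 in the other cells (difference -1.59, edgeR adjusted p = 0.00324). For SPARC the values were -1.92 and -0.51 (difference -1.42, adjusted p = 0.0315 by edgeR), and for ABCA1 -1.21 and -0.18 (difference -1.06, edgeR adjusted p = 0.00897). CLU, with -1.90 and -0.69, did not pass (edgeR adjusted p = 0.0514).

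COL1A2 differed more in members, 3.53 against 1.76 (difference 1.85, edgeR adjusted p = 0.0193). CDH8, a cadherin, was 2.52 in members and 0.27 in the other cells, and SORCS1, a sorting receptor, 1.71 and 0.26. TTC6 was higher in 2DCocu in both, 2.91 in members and 4.78 in the other cells. DELEC1 had opposite signs, -1.64 in members and 0.65 in the other cells (difference -2.31, edgeR adjusted p = 2.75e-05). Others with the lowest p for this difference were lower in 2DCocu members. They were ARHGAP31 (-1.69 in members and 0.33 in the other cells), BAALC (-1.39 and 0.36), FAM135B (-1.73 and -0.04) and COL27A1 (-1.43 and 0.39). MGST1 was higher in members (0.92 and -0.64). Their differences passed (edgeR adjusted p of 0.00324 or less). CDH8 and SORCS1 each kept their call in members in 15 of 17 alternatives, and MGST1 in 11 of 17. DELEC1, ARHGAP31, BAALC and COL27A1 kept it in 16 of 17, and FAM135B in all 17. For LINC02211, CALD1, FBXO32 and TAGLN the other cells gave 6.12, -1.69, -2.70 and -2.83, the same direction as the members.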

How the data were processed

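The values analysed are expected counts (estimated counts per gene and cell, made from the reads and not all whole) that the authors deposited as 1 matrix of 60286 genes and 43693 cells. Per the submitters' processing notes, Salmon 1.7.0 with alevin, Seurat 4.1.1 and the hg38 build were used, with settings not given in the sources used here. Only cells with at least 1006 detected genes are in the matrix. The members and the gene lists were chosen with earlier results of these data known.

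Members were found by the marker rule, and culture tags were read from cell names. Shares were compared over tags with two-sided exact permutation tests, with Benjamini-Hochberg adjustment over 8 treatment and 3 arrangement tests. Expected counts were summed over the members of each tag with at least 20 members, rounded and tested with edgeR 4.0.16 (TMM, filterByExpr, robust quasi-likelihood) at an adjusted p of 0.05, in R 4.3.3. DESeq2 1.42.0 was an alternative. The steps were tested on simulated data. Doublets were scored with simulated doublets, and the highest-scoring cells (9.5%) were removed in 1 alternative only.

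Named genes were the 10 largest rises and 10 largest falls among called genes outside the rule whose tags did not overlap, every list gene that passed, up to 4 of the highest level in lists where none passed, and the 30 largest ratios of members to other cells. The genes with the lowest p for the difference between members and other cells were added after the data were seen. Same-numbered 2DCocu tags had correlations of deviations from -0.145 to 0.103 (10 pairs, 1 over 0.1), so the numbers were not taken as pairs. Intervals are exact 95% intervals and cover counting error only.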

Additional observations from a re-analysis of the deposited data

Results flagged for a closer look

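For 5 genes of the fixed lists the difference between 2DCocu and 2DMono members departed from that in the other cells of the same tags, by a test of the difference itself. The departures, as log2 values in members minus other cells, were -1.59 for CD44, -1.42 for SPARC, -1.06 for ABCA1, -0.97 for PFKFB3 (a regulator of glycolysis) and 1.85 for COL1A2. For PFKFB3 the members gave -0.87 and the other cells 0.07 (difference edgeR adjusted p = 0.0127), and its call in members was lost without either 2DMono tag (edgeR adjusted p = 0.182 and 0.0929).

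Single tags stood far from the other tags of their group for 2 of the named genes. In 2DCocu Vehic members ENSG00000261502 was 33.9 CPM in Vehic 1, and CACNG5 was 64.5 CPM in Vehic 2, the highest of 4 tags in each case. In all 49 groups of tags were looked at, where chance alone gives 2.45 such tags.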

How the results depend on the processing

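The lower shares of 3DMono against 2DMono and of 3DFusi against 2DCocu held in every alternative run, from -3.81 to -3.01 points for 3DMono and from -3.48 to -3.13 for 3DFusi when 1 tag was left out, and over the other alternatives from -6.92 to -1.48 and from -8.48 to -0.59, the smallest sizes being those after thinning and with at least 5 markers. The treatment tests of shares could not pass 0.05 in this design (smallest adjusted p for 1 test alone 0.229), so they say nothing of stability, and several differences changed sign or became 0. After thinning no 3DMono member was left. With a value of 0.5 or more counting as present, AcMor in 3DFusi was -0.0412 points. With at least 3 markers AcCoc and AcMor in 2DCocu were -0.816 and -1.57, AcMor in 3DFusi -0.17 and AcDop in 3DMono -0.0423. With at least 5 markers AcMor in 2DCocu was -0.114, AcDop in 3DMono 0 and 2DCocu against 2DMono -1.02 (exact permutation, adjusted p = 0.0267). Thinned to 5000 counts, AcMor in 2DCocu was -0.721 (every AcMor tag below every Vehic tag), AcMor in 3DFusi -0.000642, AcDop and AcMor in 3DMono 0 and 2DCocu against 2DMono -0.494. With doublets removed AcMor in 2DCocu was -0.27. With MKI67 or COL3A1 cells kept AcMor in 3DFusi was -0.25, AcDop and AcMor in 3DMono -0.103 and -0.24, and 2DCocu against 2DMono -0.115. With ALDH1L1 left out the last was -1.56 and AcMor in 3DFusi -0.0512. The cause was not tested.

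Leaving out 1 tag gave 0.0936 to 0.974 points for AcCoc and -0.358 to 0.564 for AcMor in 2DCocu, -0.432 to -0.244 and -0.0459 to 0.142 in 3DFusi, -2.24 to 0.17 for AcDop and -2.82 to -0.408 for AcMor in 2DMono, 0 to 0.158 and 0.0881 to 0.163 in 3DMono, and -0.549 to 0.656 for 2DCocu against 2DMono. Genes called by edgeR were then 0 to 1 for AcCoc (MT-RNR1, without Vehic 2), 0 for AcMor, 188 to 667 between 2DCocu and 2DMono and 0 to 8 for the AcMor effect between them.

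Genes called for AcCoc were 10 without the count filter and 2 with MKI67 or COL3A1 cells kept. For AcMor they were 1 without the filter and 2 with doublets removed. Between 2DCocu and 2DMono they were 1428 of 11693 with MKI67 or COL3A1 cells kept. They were 88 of 7557, 85 of them among the 686, with ALDH1L1 left out and tags of at least 10 members, where 7 tags remained. For the AcMor effect between arrangements they were 3 by DESeq2, 43 without the filter and 1 at a value of 0.5. A replicate block by tag number called 0 genes for AcCoc and 0 for AcMor in 2DCocu. The fit with at least 5 markers between 2DCocu and 2DMono, and treatments in 2DMono at 20 members, could not be fitted. Over 916 alternative values of 56 named genes none changed sign, and 127 lost their call. Most of these genes were named because they passed, and the largest changes only where tags did not overlap. The kept sign was thus largely fixed by the choice and says little of stability. Alternatives with ALDH1L1 left out or MKI67 or COL3A1 cells kept in the fits were added after the data were seen. Depth limits all shares, since membership needs 4 detected genes.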

Other observations

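For 2 genes chosen after their values were seen, the log2 values had opposite signs in members and in the other cells of the same tags. Neither gene passed in both. SGCZ, a sarcoglycan, ran from 166 through 549 to 909 CPM in 2DCocu members against 20.1 and 30.4 in 2DMono. Its log2 difference was 4.37 in members (edgeR adjusted p = 0.0112) and -0.26 in the other cells (edgeR adjusted p = 0.162). For SGCZ the difference of these values was 4.53 (edgeR adjusted p = 0.0082). Its call in members was lost without either 2DMono tag (edgeR adjusted p = 0.179 and 0.151). TNC ran from 47.2 through 161 to 219.6 CPM against 532 and 319.9. It was -1.46 in members (edgeR adjusted p = 0.0502, not passed) and 0.76 in the other cells (edgeR adjusted p = 0.00165). The difference was -2.30 (edgeR adjusted p = 0.00596).

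The lipid kinase gene PIK3C2G had a count in 20.8% of 2DCocu members and 15.3% of 2DMono members, against 11.5% and 4.15% of the other cells. Members are deeper than the other cells, and by level it was 46.5 CPM in 2DCocu members against 40.5 in the other cells, and 30 against 4.79 in 2DMono (pooled cells). In 2DCocu it had a count in 26% of the cells with ALDH1L1 that were not members. The 125 members with PIK3C2G had GFAP, a rule gene, at 440.4 CPM and CD44 at 400.1. The 550 without it had 277 and 294, and the median depths were 17252 counts with PIK3C2G and 17103 without. Other astrocyte and rule genes went both ways. SLC1A3 (579 CPM with PIK3C2G and 869 without), PTPRZ1 (739 and 1035), GJA1 (68.7 and 96.3) and SLC4A4 (123 and 168) were lower. SPARCL1 (232 and 209) and ABCA1 (372 and 355) were higher.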
